A study of Mus musculus with 8 samples.

Results

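The levels of 10 genes that direct the differentiation of spermatogonia were followed in whole testes of Ing2+/+ and Ing2-/- mice. They were Sohlh1, Sohlh2, Stra8, Dmrt1, Dmrtb1, Kit, Zbtb16, Etv5, Sall4 and Id4, and every probe set that the array annotation gives to exactly 1 of these symbols was taken. All 10 genes were measured, by 11 of the 35557 probe sets on the array, and these 10 stood among 19938 genes with a probe set of 1 symbol. Etv5 had 2 probe sets, called A and B here.

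Spermatogonia are the mitotic germ cells on the floor of the seminiferous tubule. A small stem cell pool renews itself under Sertoli cell factors such as GDNF, and retinoic acid drives the other cells through differentiating divisions into meiosis. ID4, ETV5, ZBTB16 (also called PLZF) and SALL4 are transcriptional regulators of the stem and progenitor pool. SOHLH1 and SOHLH2 are helix-loop-helix factors that start differentiation, KIT is the receptor whose appearance marks it, and STRA8 is induced by retinoic acid and is needed for meiosis. DMRT1 holds back meiosis in spermatogonia, and its relative DMRTB1 (also called DMRT6) acts in the change from mitosis to meiosis. Several of these genes are not limited to germ cells, since Sertoli cells also make Dmrt1 and Etv5 and Leydig cells also make Kit.

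The Ing2-/- group held 5 males and the Ing2+/+ group 3 wild-type littermates, all 2 to 3 months old, with 1 array for each mouse. ING2 is a plant homeodomain protein that binds methylated histone tails and belongs to a histone deacetylase complex. The allele was made by flanking exon 2 with loxP sites in 129/Sv embryonic stem cells, deleting it with EIIa-Cre in all cells of the mouse and breeding to C57BL/6J mice to lose the Cre transgene. Germ cells and somatic cells of the testis therefore both lacked Ing2 in the Ing2-/- mice. The values are log2 levels from robust multi-array averaging (RMA), which sets every transcript relative to the others of the same testis, and a difference of 1 is a doubling. Differences are Ing2-/- minus Ing2+/+. A probe set is called higher or lower where limma gave a p under 0.05 once adjusted by the Benjamini-Hochberg method for all 35557 probe sets tested.

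The Ing2 probe set followed the labels, at 7.34 to 7.60 in Ing2+/+ and 5.06 to 5.64 in Ing2-/- testes (limma adjusted p = 0.000395). Array medians were 6.41 to 6.45 in Ing2+/+ and 6.46 to 6.53 in Ing2-/- testes, a small offset without overlap. Ing2-/- replicate 3 had a mean r of 0.983 with the other arrays of its group, across probe sets, against 0.990 to 0.992 for the other 4. Results that rest on that testis are given with and without it.

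Of the 11 probe sets 1 was called, that of Sohlh2, which fell, and 0 were called higher. Over all probe sets 3.03% were called lower and 1.79% higher, and 1 call among 11 is not read here as a result about the genes together. At an unadjusted limma p under 0.05 there were 4 higher and 1 lower, where the array had 16% higher and 11.8% lower. At the methods' unadjusted p under 0.001 there were 0, against 0.821% higher and 1.86% lower over the array. There were 5 probe sets that had all 5 Ing2-/- testes above all 3 Ing2+/+ testes and 1 with all 5 below, against 14.4% and 12.2% of the array. The 5 were those of Kit, Zbtb16, Etv5 (A and B) and Dmrt1. The median difference of the 11 was 0.22, and that of all probe sets was 0.03. None of the 11 had a mean level below 5.54, the median level of unnamed probe sets (those with no symbol), which served as a mark of weak signal. Whole testis RNA was measured, so fewer cells of a type and less RNA in each cell cannot be told apart in any value given here.

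**Figure D1:**
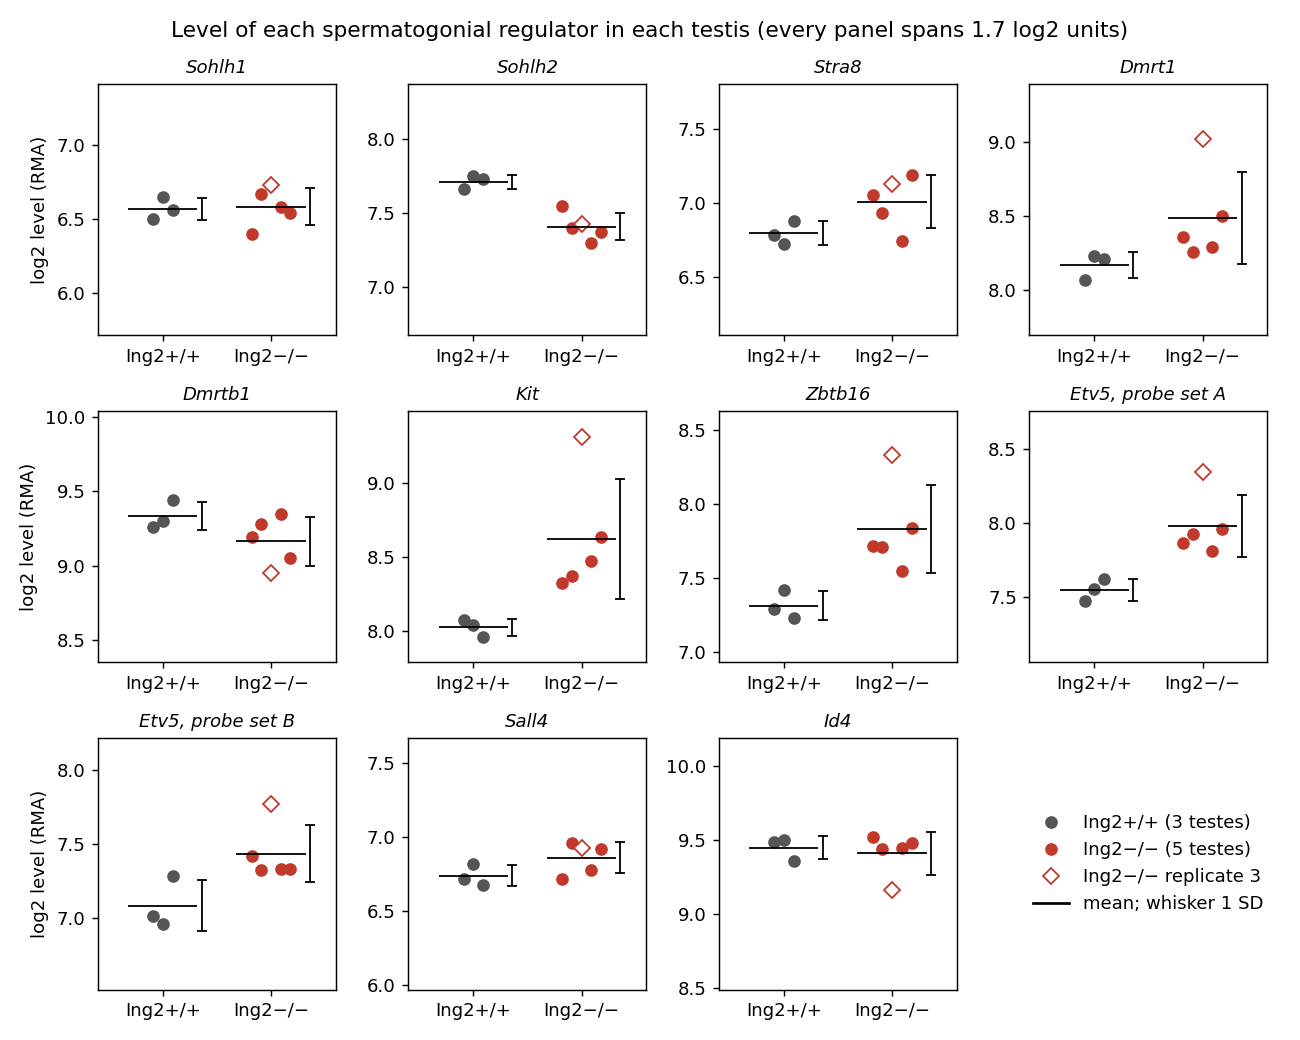
Each panel shows the log2 RMA level (vertical axis) of 1 probe set in the 3 Ing2+/+ testes (grey) and the 5 Ing2-/- testes (red), with horizontal lines at the means, whiskers of 1 SD and an open diamond for Ing2-/- replicate 3. Sohlh2 lies below the Ing2+/+ testes in all 5, Kit, Zbtb16, Etv5 and Dmrt1 lie above them in all 5, and the diamond is the highest point for those last 5 probe sets.

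Sohlh2 stood at 7.66, 7.75 and 7.73 in the Ing2+/+ testes and at 7.55, 7.40, 7.43, 7.30 and 7.37 in the Ing2-/- testes. The groups did not overlap, and replicate 4 was the lowest. The means were 7.72 ± 0.05 (SD, n = 3) and 7.41 ± 0.09 (SD, n = 5). The gene fell by 0.31 on the log2 scale (SE 0.071, 95% interval -0.47 to -0.15, limma adjusted p = 0.0471), to 0.809 of the Ing2+/+ level. The exact two-sided permutation p was 0.0179, the smallest that the 56 splits of 8 testes into 3 and 5 allow. Without Ing2-/- replicate 3 the difference was again -0.31, with a limma adjusted p of 0.0272. Leaving out 1 testis at a time gave -0.34 to -0.28. The call was kept without Ing2-/- replicate 1 or 3, and it was lost without Ing2-/- replicate 2, 4 or 5 (limma adjusted p = 0.0718, 0.0624 and 0.108) or Ing2+/+ replicate 1, 2 or 3 (0.135, 0.172 and 0.147). Without Ing2-/- replicate 2, 4 or 5, 1.67%, 3.25% and 0.951% of the whole array were called lower. Without Ing2+/+ replicate 1, 2 or 3 the shares were 0.155%, 0.121% and 1.03%, against 3.03% with all testes.

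Sohlh1, its partner in starting differentiation, showed no such shift. It stood at 6.50, 6.65 and 6.56 in the Ing2+/+ testes and at 6.40, 6.67, 6.73, 6.58 and 6.54 in the Ing2-/- testes. The groups overlapped throughout. The difference was 0.02 (SE 0.085, 95% interval -0.18 to 0.21, limma adjusted p = 0.918), an interval that holds neither the estimate of Sohlh2 nor any change of its size. The 2 genes were also set against each other within each testis, where only the change of their difference between genotypes can be read, since levels of unlike probe sets are not comparable. Sohlh1 minus Sohlh2 was -1.18 to -1.11 in Ing2+/+ and -1.15 to -0.70 in Ing2-/- testes, a change of 0.32 with all testes and 0.29 without Ing2-/- replicate 3. The ranges overlapped, and the exact two-sided permutation p was 0.0536, or 0.0893 adjusted over the 2 pairs of related genes that were compared. A different response of the 2 genes therefore did not pass its own test.

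SOHLH1 and SOHLH2 bind the E-box, CANNTG, and the promoters of both genes and of Kit are shown because among the 10 genes Sohlh2 alone was called, Sohlh1 had the smallest difference and Kit the largest. The sequences are the 250 bases before the annotated start from the RefSeq annotation of GRCm38.p6, 5′ to 3′ on the strand of the gene. Capitals mark CANNTG and AGGTCA, the core that retinoic acid receptors bind, searched on both strands (CANNTG reads the same on either).
Sohlh2, chr3:55181794-55182043, plus strand: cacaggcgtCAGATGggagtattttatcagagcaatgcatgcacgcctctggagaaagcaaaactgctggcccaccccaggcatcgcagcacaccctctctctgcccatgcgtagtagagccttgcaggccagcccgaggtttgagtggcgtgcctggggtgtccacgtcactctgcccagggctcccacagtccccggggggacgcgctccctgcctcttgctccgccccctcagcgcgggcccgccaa
Sohlh1, chr2:25847249-25847498, minus strand: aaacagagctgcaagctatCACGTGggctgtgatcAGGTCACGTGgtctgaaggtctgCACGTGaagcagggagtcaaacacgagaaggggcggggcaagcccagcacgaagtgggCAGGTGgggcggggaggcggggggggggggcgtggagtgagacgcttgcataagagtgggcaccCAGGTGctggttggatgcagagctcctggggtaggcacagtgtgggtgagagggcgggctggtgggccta
Kit, chr5:75574737-75574986, plus strand: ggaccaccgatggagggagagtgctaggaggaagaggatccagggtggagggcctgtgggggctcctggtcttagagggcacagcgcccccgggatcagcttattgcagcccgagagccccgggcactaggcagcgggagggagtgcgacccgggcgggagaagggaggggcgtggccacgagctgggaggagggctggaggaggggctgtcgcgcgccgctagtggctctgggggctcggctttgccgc
Sohlh2 held 1 E-box, CAGATG, whose first base lies 241 bases before the start. Sohlh1 held 5, of which 3 were CACGTG, at 231, 211 and 192 bases before the start, and 1 AGGTCA at 215 that overlaps the CACGTG at 211. Kit had 2 windows, and the 1 shown, at its outermost start, held neither motif. At least 1 CANNTG occurred in 66.2% of all 32851 promoter windows of the table, and at least 1 CACGTG in 6.02%. At least 3 CACGTG occurred in 20 windows, or 0.0609%, and at least 1 AGGTCA in 14%. These are matches of letters in a fixed window and no binding was measured. Windows were given for 7 of the 10 genes, and those of Dmrt1, Zbtb16 and Sall4 were not among them.

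Kit had the largest difference of the 11. Its level was 8.07, 8.04 and 7.96 in the Ing2+/+ testes and 8.32, 8.37, 9.31, 8.47 and 8.63 in the Ing2-/- testes. All 5 Ing2-/- testes lay above the Ing2+/+ testes, and replicate 3 lay far above the other 4. The means were 8.02 ± 0.06 (SD, n = 3) and 8.62 ± 0.40 (SD, n = 5), so the spread among Ing2-/- testes was several times that among Ing2+/+ testes. The difference was 0.60 (SE 0.206, 95% interval 0.13 to 1.07, 1.52-fold), and it missed the threshold, with a limma adjusted p of 0.107 and an exact permutation p of 0.0357. Without Ing2-/- replicate 3 it was 0.43 (SE 0.084, 95% interval 0.24 to 0.62), and the limma adjusted p was 0.0167. A smaller difference thus passed once the widest value was gone. In that comparison of 3 with 4 testes 7.31% of all probe sets were called higher and 6.77% lower, more than with all 8 testes, and 3 of the 11 were called higher and 1 lower.

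Stra8, the other gene of the retinoic acid step, stood at 6.78, 6.72 and 6.88 in the Ing2+/+ testes and at 7.05, 6.93, 7.13, 6.74 and 7.19 in the Ing2-/- testes. The Ing2-/- testes lay above the Ing2+/+ testes in 4 of 5 mice and replicate 4 lay among them. The difference was 0.22 (SE 0.105, 95% interval -0.02 to 0.46, limma adjusted p = 0.216), and 0.19 without Ing2-/- replicate 3. Its highest testis was replicate 5, at 0.40 above the Ing2+/+ mean, and not replicate 3.

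Among the regulators of the stem and progenitor pool, Zbtb16 stood at 7.29, 7.42 and 7.23 in the Ing2+/+ testes and at 7.72, 7.71, 8.33, 7.55 and 7.84 in the Ing2-/- testes. The groups did not overlap and replicate 3 was again the highest. The difference was 0.52 (SE 0.159, 95% interval 0.16 to 0.88, 1.43-fold), with a limma adjusted p of 0.0861 and an exact permutation p of 0.0536. Without Ing2-/- replicate 3 it was 0.39 with a limma adjusted p of 0.0211. A gene model named Gm32280 overlaps Zbtb16 in the annotation, and the values were not separated between the pair.

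Etv5, a target of GDNF signalling, had 2 probe sets. Probe set B read 7.01, 6.96 and 7.28 in the Ing2+/+ testes and 7.42, 7.32, 7.77, 7.33 and 7.33 in the Ing2-/- testes. The groups were apart by a narrow gap, between Ing2+/+ replicate 3 and Ing2-/- replicate 2, and replicate 3 of the Ing2-/- testes was highest. The difference was 0.35 (SE 0.123, 95% interval 0.07 to 0.63, limma adjusted p = 0.114, exact permutation p = 0.0179), and 0.26 without Ing2-/- replicate 3 (limma adjusted p = 0.0712). Probe set A read 7.47, 7.55 and 7.62 in the Ing2+/+ testes and 7.86, 7.92, 8.34, 7.81 and 7.96 in the Ing2-/- testes. Its groups did not overlap either. Its difference was 0.43 (SE 0.119, 95% interval 0.16 to 0.70, limma adjusted p = 0.0695, exact permutation p = 0.0179), and 0.34 without Ing2-/- replicate 3, which passed at a limma adjusted p of 0.015. Etv5 lies on chromosome 16, as do the genes of all 10 probe sets numbered next to B, while all 10 numbered next to A name genes of chromosome 10. Whether probe set A reads Etv5 itself is uncertain.

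Sall4 and Id4 stayed within or close to their Ing2+/+ ranges. Sall4 stood at 6.72, 6.82 and 6.68 in the Ing2+/+ testes and at 6.72, 6.96, 6.93, 6.78 and 6.92 in the Ing2-/- testes, with 3 of 5 above. The difference was 0.12 (SE 0.078, 95% interval -0.05 to 0.30, limma adjusted p = 0.335). Id4, the factor most closely tied to the stem cell state, stood at 9.49, 9.50 and 9.36 in the Ing2+/+ testes and at 9.52, 9.44, 9.16, 9.45 and 9.48 in the Ing2-/- testes. Of its Ing2-/- testes 4 lay within 0.07 of the Ing2+/+ mean and replicate 3 lay 0.29 below it. The difference of Id4 was -0.04 (SE 0.092, 95% interval -0.25 to 0.17, limma adjusted p = 0.825), and 0.02 without that testis. Long noncoding RNA genes overlap both Sall4 (Gm14261) and Id4 (A330033J07Rik).

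Dmrt1 stood at 8.07, 8.23 and 8.21 in the Ing2+/+ testes and at 8.36, 8.26, 9.02, 8.29 and 8.50 in the Ing2-/- testes. All 5 lay above, 2 of them by less than 0.1, and replicate 3 stood far above the rest. The difference was 0.32 (SE 0.164, 95% interval -0.05 to 0.69, limma adjusted p = 0.242, exact permutation p = 0.107), and 0.18 without Ing2-/- replicate 3 (limma adjusted p = 0.154). Dmrtb1 stood at 9.26, 9.30 and 9.44 in the Ing2+/+ testes and at 9.19, 9.28, 8.95, 9.35 and 9.05 in the Ing2-/- testes. Of its 5 Ing2-/- testes 3 lay below the Ing2+/+ range and replicate 3 was the lowest. The difference of Dmrtb1 was -0.17 (SE 0.101, 95% interval -0.39 to 0.06, limma adjusted p = 0.314), and -0.11 without Ing2-/- replicate 3 (limma adjusted p = 0.435). A pseudogene, Gm12899, and the noncoding 1700047F07Rik overlap Dmrtb1. Within each testis, Dmrt1 minus Dmrtb1 changed by 0.48 between the genotypes, and by 0.30 without Ing2-/- replicate 3. That change had an exact two-sided permutation p of 0.0893, the same after adjustment over the 2 pairs, and did not pass.

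**Figure D2:**
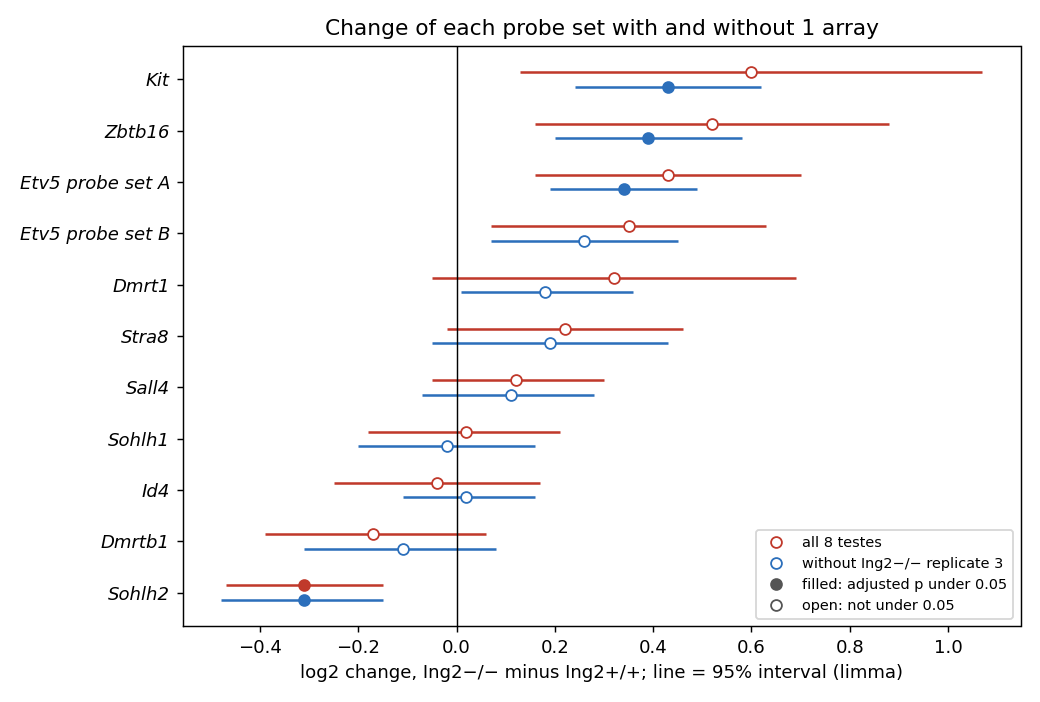
The horizontal axis gives the log2 difference, Ing2-/- minus Ing2+/+, with its 95% limma interval, for the 11 probe sets with all 8 testes (red) and without Ing2-/- replicate 3 (blue), and filled points have an adjusted p under 0.05. Sohlh2 is filled in both, at -0.31 each time, while Kit, Zbtb16 and Etv5 probe set A are filled only without that testis, at 0.43, 0.39 and 0.34.

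The 11 probe sets differed in how far they followed the testis that stood apart. Replicate 3 was the highest of the 5 Ing2-/- testes for 6 of the 11 and the lowest for 2 more. The share of all probe sets where it was highest or lowest was not computed. These counts are therefore not read as particular to the 10 genes. Replicate 3 lay 1.29 above the Ing2+/+ mean for Kit, 1.02 for Zbtb16, 0.85 for Dmrt1, and 0.80 and 0.69 for Etv5 A and B, against a mean over the other 4 testes of 0.43 for Kit. For Sohlh2 it lay at -0.28, between the -0.42 and -0.17 that bounded the other 4.

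Markers of somatic testis cells stood higher in the same testes. The Sertoli score is the mean over 19 marker genes of the level minus the Ing2+/+ mean. It was -0.03 to 0.02 in Ing2+/+ testes and 0.41, 0.29, 1.13, 0.33 and 0.53 in Ing2-/- replicates 1 to 5. All 19 Sertoli markers had a difference above 0 and 1 was called higher, against 1.79% of the array. With Ing2-/- replicate 3 left out, 13 of the 19 were called higher, against 7.31% of the array. None of the 19 had a mean level under the 5.54 of unnamed probe sets. Of the 2 with the highest level, Clu was at 11.67 and 12.10 (Ing2+/+ and Ing2-/- means, limma adjusted p = 0.0879) and Ctsl at 10.26 and 10.74 (limma adjusted p = 0.0695). The Leydig score, over 7 genes, was -0.04 to 0.03 in Ing2+/+ testes and 0.50, 0.52, 1.21, 0.32 and 0.87 in the Ing2-/- testes. All 7 Leydig markers had a difference above 0. Of these 5 were called higher, with and without Ing2-/- replicate 3 and against the same 1.79% and 7.31% of the array. Among the 5 were Cyp17a1 and Cyp11a1 of androgen synthesis, higher by 0.60 and 0.83 (limma adjusted p = 0.0451 and 0.0401). Both of these calls were lost without Ing2-/- replicate 1, 2 or 5 or any Ing2+/+ testis, with limma adjusted p of 0.0559 to 0.158. In those fits 0.0169% to 1.05% of the array was called higher. The macrophage score was 0.14 to 0.67 in the Ing2-/- testes and -0.02 to 0.02 in the Ing2+/+ testes.

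Markers of later germ cells scored below 0. The score of 10 pachytene spermatocyte markers was -0.64 to -0.17 in the Ing2-/- testes and that of 10 round spermatid markers -0.95 to -0.17, with replicate 3 at the low end of each. In Ing2+/+ testes these scores were -0.03 to 0.03 and -0.01 to 0.01. All 10 genes of each list had a difference below 0, and 1 of each was called lower, against 3.03% of the array. Among the other 7 testes, without Ing2-/- replicate 3, 4 of the pachytene and 3 of the round spermatid markers were called lower, against 6.77% of the array. Elongating spermatid markers scored -0.49 to -0.05 in Ing2-/- testes and -0.05 to 0.05 in Ing2+/+ testes, so these ranges met. Ing2-/- replicates 1 and 2 were at -0.06 and -0.05. Of these 10 markers 0 were called. The score of the 18 other genes of undifferentiated spermatogonia was -0.01 to 0.10 in Ing2-/- testes and -0.04 to 0.02 in Ing2+/+ testes, and these ranges overlapped. That of the 15 measured genes of differentiating spermatogonia and meiotic entry was 0.05 to 0.17 in Ing2-/- testes and -0.01 to 0.02 in Ing2+/+ testes, apart by a narrow gap. Of the 15, Ccnd2 had the largest difference, 0.51, while the median was 0.08. Whether the gap holds without Ccnd2 was not tested. The array medians were also offset upward in Ing2-/- testes, at 6.46 to 6.53 against 6.41 to 6.45.

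The gap between the genotypes in Kit, Zbtb16, Etv5 and Dmrt1 was therefore also recomputed with the Sertoli score of each testis in the limma model, a choice made after the values were seen. The difference was then -0.01 for Kit, 0.07 for Zbtb16, 0.11 and 0.05 for Etv5 A and B, and -0.17 for Dmrt1, with none called. For Sohlh2 it was -0.34 (SE 0.099), with a limma adjusted p of 0.231. The score did not overlap between the genotypes, so in this model the estimate rests on how the 5 Ing2-/- testes differ among themselves, and genotype and cell mix cannot be told apart by it. Whether the somatic markers have a part in the values of Kit, Zbtb16, Etv5 and Dmrt1 was not tested beyond this.

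**Figure D3:**
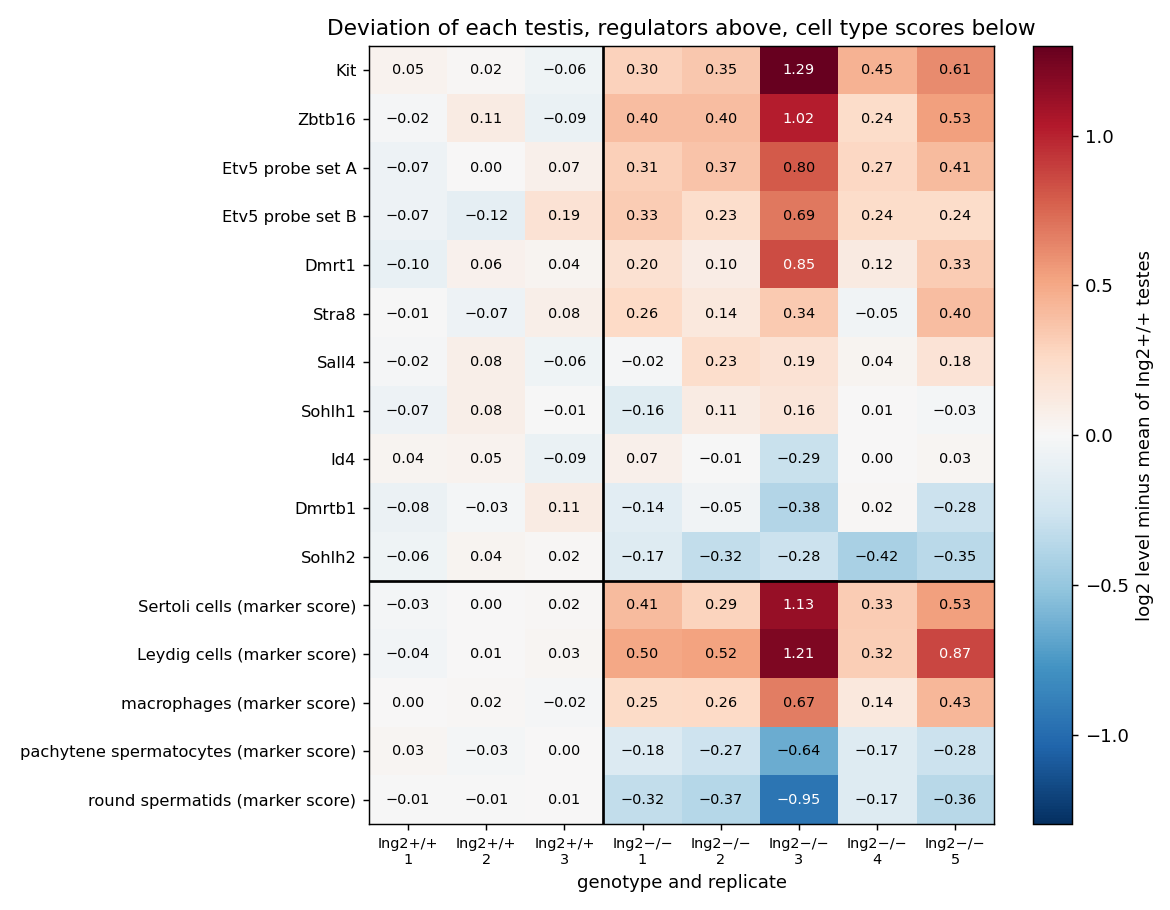
Each cell gives the log2 level of 1 testis (columns) minus the mean of the 3 Ing2+/+ testes, for the 11 probe sets above the line and for 5 cell type scores below it, in red for higher and blue for lower. The column of Ing2-/- replicate 3 is darkest, with Kit at 1.29 and the Sertoli score at 1.13. The row of Sohlh2 runs from -0.42 to -0.17 in the Ing2-/- testes, with replicate 3 at -0.28.

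Other genes of the same stages were read from 2 lists, 18 genes of undifferentiated spermatogonia and 16 of differentiating spermatogonia and meiotic entry, of which 33 were measured (Meiosin was not analysed here). Of the 33 measured genes 1 was called higher and 0 lower by limma, against 1.79% and 3.03% of the array. An unadjusted p under 0.05 was reached by 7 higher and 4 lower, against 16% and 11.8% of the array. Groups did not overlap for 8 higher and 3 lower, against 14.4% and 12.2% of the array, and the median difference was 0.08, near the 0.03 of all probe sets. Of the 33 genes 4 had a mean level below 5.54, the mark of weak signal, where a change could be missed.

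The called gene was Ccnd2, which encodes cyclin D2 of the cell cycle and is also expressed outside the germ line. It stood at 7.92, 7.85 and 7.92 in the Ing2+/+ testes and at 8.37, 8.31, 8.62, 8.43 and 8.32 in the Ing2-/- testes. The groups were well apart, and replicate 3 was again the highest, though closer to the others than for Kit. Ccnd2 rose by 0.51 (SE 0.082, 95% interval 0.33 to 0.70, limma adjusted p = 0.0179). The call was kept without any 1 Ing2-/- testis and lost without Ing2+/+ replicate 1, 2 or 3, where the difference was 0.53, 0.49 and 0.52 (limma adjusted p = 0.0884, 0.096 and 0.0593). In those fits 0.0337%, 0.0169% and 0.219% of the array were called higher, against 1.79% with all testes.

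No gene of undifferentiated spermatogonia was called. The 2 with the smallest p were Bcl6b, a target of GDNF signalling like Etv5, and Utf1, a chromatin factor of early spermatogonia. Bcl6b had 6.31 ± 0.01 (SD, n = 3) and 6.10 ± 0.08 (SD, n = 5), and a difference of -0.22 (limma adjusted p = 0.0829). Utf1 had 6.39 ± 0.08 (SD, n = 3) and 6.18 ± 0.06 (SD, n = 5), and a difference of -0.21 (limma adjusted p = 0.0879). Both groups of each were apart, with all 5 Ing2-/- testes below. Bcl6b and Etv5 thus had estimates of opposite sign, neither of them called. Without Ing2-/- replicate 3, Foxo1 (0.30, limma adjusted p = 0.0261) was called higher beside Ccnd2, and the meiotic cohesin gene Rec8 (-0.34, limma adjusted p = 0.0132) was called lower. These were 2 higher and 1 lower of the 33 genes, where 7.31% of the array was called higher and 6.77% lower. They are not read as a result about spermatogonial genes. Foxo1 and Rec8 are named here after their values were seen.

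**Figure D4:**
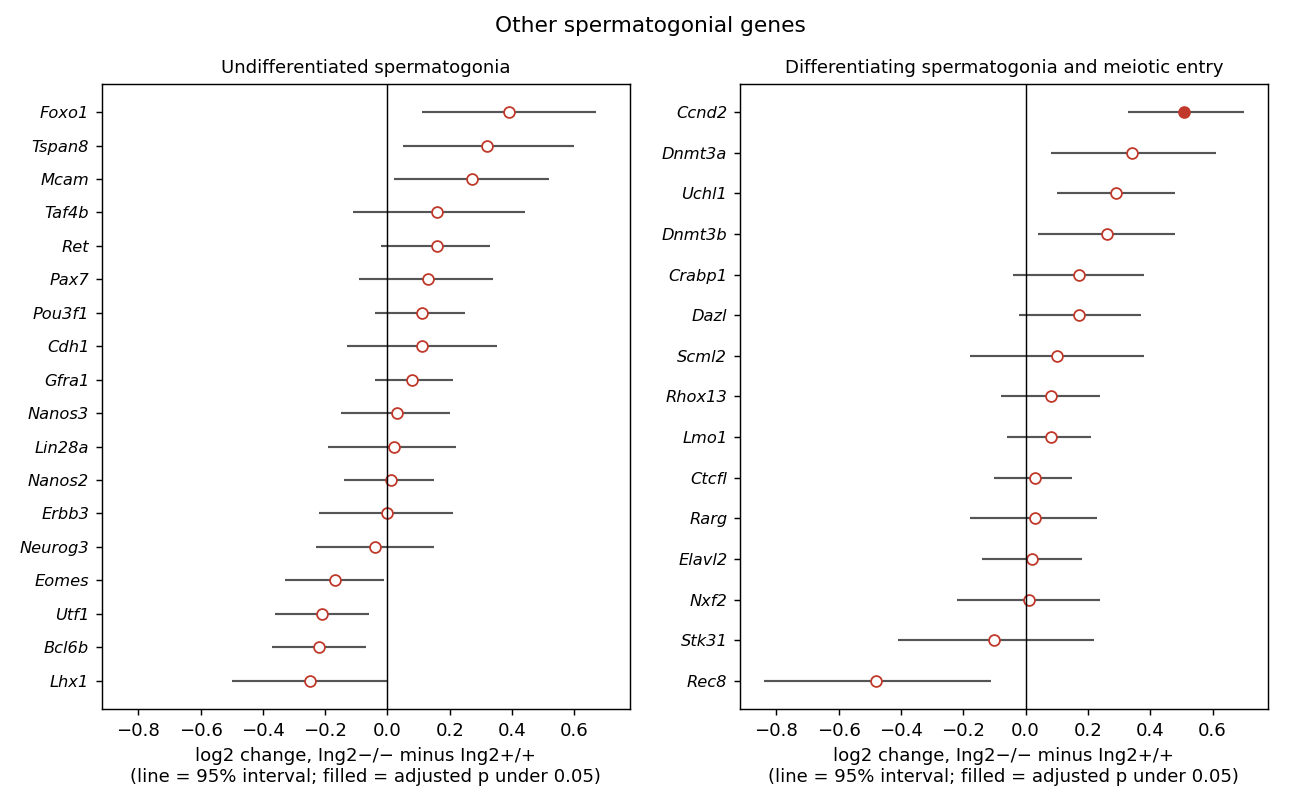
The horizontal axes give the log2 difference, Ing2-/- minus Ing2+/+, with its 95% limma interval for the 18 genes of undifferentiated spermatogonia (left) and the 15 measured genes of differentiating spermatogonia and meiotic entry (right), sorted by size. Only Ccnd2, at 0.51, is filled (adjusted p under 0.05), and most points lie near 0, with Rec8 lowest at -0.48.

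The genes whose pattern over the 8 testes lay closest to that of Sohlh2 were found by the root mean square difference of the profiles, each minus its Ing2+/+ mean, among 19937 other genes. They were Zscan10, at a distance of 0.052 log2 units, Tapbpl at 0.053 and Piga at 0.058. Their differences between the genotypes were -0.28, -0.34 and -0.32, with limma adjusted p of 0.047, 0.0369 and 0.0561. All 3 were selected for their likeness, so their direction is a description and not a separate result.

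Across 19 other ways of fitting the data, Sohlh2 stayed below 0 in all, from -0.99 to -0.26, and was called in 9. The -0.99 and 1 of the 9 calls came from the fit with equal Sertoli medians, where 79% of the array was called lower. Kit was called in 2, Zbtb16 in 2, Etv5 probe set A in 2 and probe set B in 1. For Kit, Zbtb16 and Etv5 A these were the fit without Ing2-/- replicate 3 and the fit that gives each array a weight by its fit to the model, and for Etv5 B the weighted fit. In the weighted fit the differences of Kit, Zbtb16 and Etv5 A were 0.47, 0.40 and 0.36, with limma adjusted p of 0.0219, 0.0231 and 0.0129. That fit called 10.2% of the array higher and 8.25% lower, and the fit without Ing2-/- replicate 3 called 7.31% and 6.77%. When every array was shifted so that its Sertoli markers had the same median, which moved the median of all probe sets from 0.03 to -0.65, Kit stood at -0.08, Zbtb16 at -0.16, Etv5 at -0.25 and -0.33, and Dmrt1 at -0.36. These values are below 0 but above the median of all probe sets, and Sohlh2, at -0.99, was below that median. An equal median of the 33 other spermatogonial genes moved the median of all probe sets to -0.09 and gave 0.48 for Kit, 0.40 for Zbtb16 and -0.43 for Sohlh2.

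**Figure D5:**
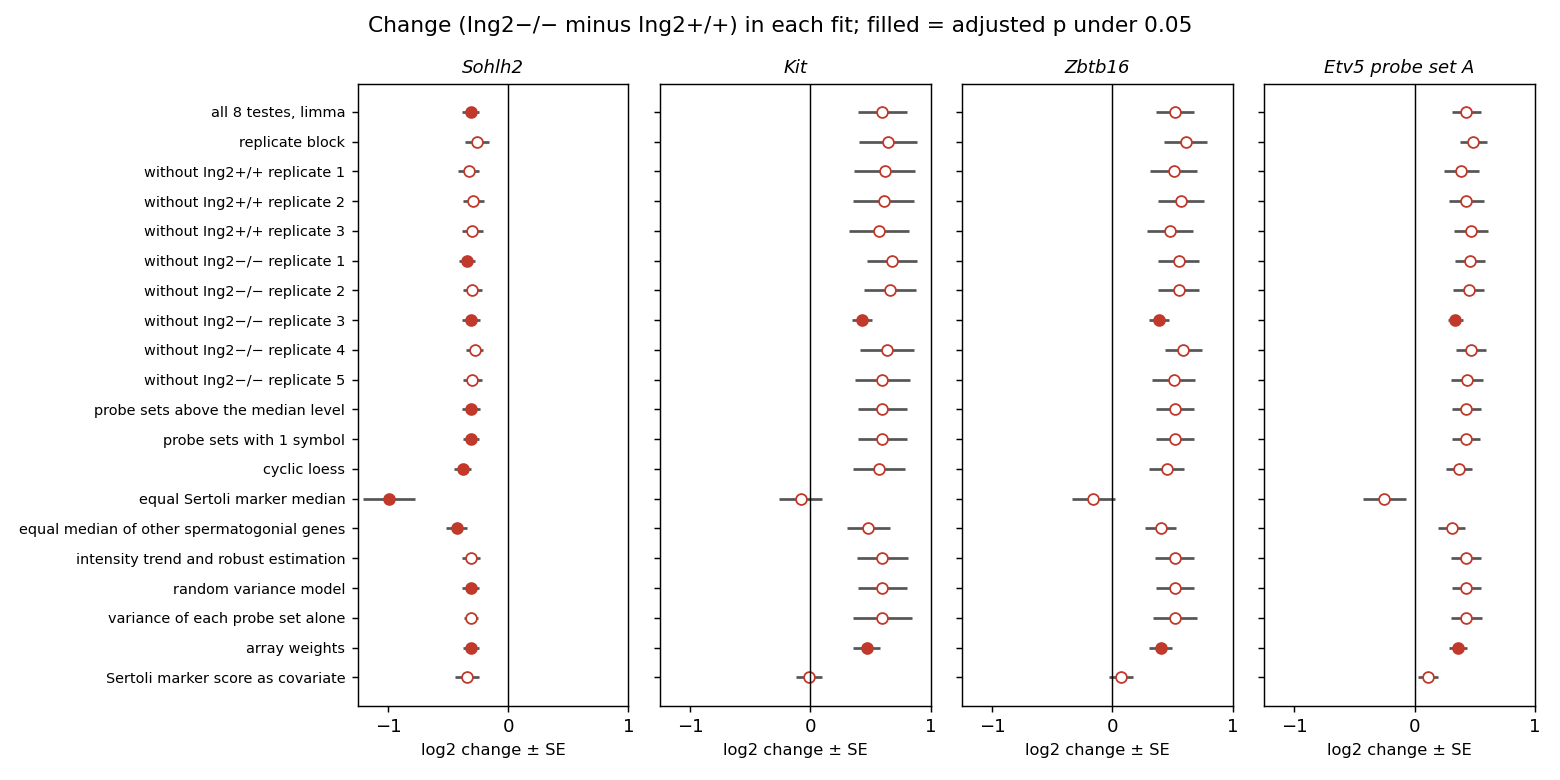
Each row is 1 way of fitting the data and the horizontal axis gives the log2 difference, Ing2-/- minus Ing2+/+, with its SE, for Sohlh2, Kit, Zbtb16 and Etv5 probe set A, filled where the adjusted p is under 0.05. Sohlh2 lies left of 0 in every row, from -0.99 to -0.26, while the others lie right of 0 except in the fit with equal Sertoli markers and, for Kit, the fit with the Sertoli score as a covariate.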

How the data were processed

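Total RNA was extracted with Trizol from whole testes and hybridized to Affymetrix Mouse Gene ST arrays, 1 mouse per array. The deposited log2 values are the authors' RMA output from Affymetrix Expression Console (version not given in the sources used) and were taken without further scaling. Each mouse is a replicate, with no pooling. RMA brings arrays toward 1 distribution, so a change in total RNA cannot be read from these values. The number of arrays limits the precision.

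Probe sets were named by the platform annotation, with symbols updated through gene identifiers for 21698 of the 21789 probe sets with 1 symbol. A further 1621 had several symbols, none holding one of the 10 genes, and 12147 had none. The genotype difference was fitted over all 8 arrays, without covariates, by lmFit and eBayes of limma 3.58.1 (R 4.3.3). The random variance model of the methods was run as an alternative. Single values were also compared by exact permutation over the 56 splits. The fit was tested on simulated data. Other settings tried were a block for the replicate number, leaving out 1 array at a time, 2 filters, cyclic loess, equal Sertoli or spermatogonial medians, other variance estimates, array weights and, added after the data were seen, the Sertoli score as a covariate. Sequences and overlapping genes came from RefSeq tables of GRCm38.p6.

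The 10 genes and all lists were chosen with earlier results of these data known. Named genes are the 10; Ing2; of each spermatogonial list up to 4 called genes, or otherwise the 2 with the smallest p; the 3 nearest profiles of each called gene; and the 2 Sertoli and 2 Leydig markers of highest level. The markers of peritubular myoid and endothelial cells had median differences of 0.26 and 0.25. Lhcgr and Fdxr were not analysed here.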

Additional observations from a re-analysis of the deposited data

Results flagged for a closer look

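Of 29 sets of 5 Ing2-/- values, 6 held a testis whose gap to the next, divided by the range, was above 0.71, Dixon's value for 5 samples, which chance passes in about 1 set in 20. In all 6 it was replicate 3, so these are not 6 separate events. Its level was 8.34 for Etv5 probe set A (gap over range 0.728), 7.77 for Etv5 probe set B (0.787) and 9.16 for Id4 (0.801). Id4 was the low one, at 9.44 to 9.52 in the other 4 testes. Replicate 3 also scored 1.13 for the Sertoli markers (0.714), -0.64 for the pachytene spermatocyte markers (0.766) and -0.95 for the round spermatid markers (0.744). Kit, Zbtb16 and Dmrt1 had their highest level in the same testis, with gaps that stayed under the value. The source of the difference of that testis was not tested.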

How the results depend on the processing

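Sohlh2 kept its direction in all 19 alternatives. It alone was called lower with all testes; leaving out 1 array gave 0 to 1 probe sets of the 10 genes called lower, and the replicate block, the robust fit with an intensity trend, single-probe-set variances and the Sertoli covariate each gave 0, while equal Sertoli medians gave 6 of 11, where 79% of the whole array was called lower. None was called higher, against 4 with array weights, which called 10.2% of the array higher and 8.25% lower, and 0 to 3 with 1 array left out, the 3 being without Ing2-/- replicate 3. With 1 array left out, 0.121% to 6.77% of the whole array was called lower and 0.0169% to 7.31% higher. Of the 33 other spermatogonial genes, 1 was called higher: this became 0 with the replicate block, equal Sertoli medians, equal spermatogonial medians, single-probe-set variances and the covariate, 4 with array weights, and 0 to 2 with 1 array left out. None was called lower, against 1 with cyclic loess, 26 with equal Sertoli medians (of 33, beside the same 79% of the array), 3 with array weights and 0 to 1 with 1 array left out.

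The deviations of same-numbered arrays from their group means had r of -0.0574, 0.184 and 0.0058. Arrays of unlike number had r of -0.1126 to 0.1439. With only 3 same-numbered pairs, these values cannot decide whether the numbers pair the mice. With the replicate block, which uses 3 numbers present in both genotypes, Ing2 was at -2.15 (limma adjusted p = 0.0612), Sohlh2 at -0.26 (0.221), and 0 probe sets of the whole array were called in either direction. Without Ing2-/- replicate 3, 2406 were called lower and 2600 higher over the array, against 1078 and 635 with all testes.

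Sohlh1, near 0, lay between -0.02 and 0.06 with 1 array left out and changed sign in 8 alternatives: -0.02 without Ing2+/+ replicate 1, -0.00 without Ing2-/- replicate 2, -0.02 without Ing2-/- replicate 3, -0.05 with loess, -0.66 with equal Sertoli medians, -0.10 with equal spermatogonial medians, -0.03 with array weights and -0.08 with the covariate. Equal Sertoli medians, which shift all probe sets down, gave -0.46 for Stra8, -0.36 for Dmrt1, -0.08 for Kit, -0.16 for Zbtb16, -0.25 and -0.33 for Etv5 A and B and -0.56 for Sall4. The covariate gave -0.17 for Dmrt1, 0.05 for Dmrtb1, -0.01 for Kit and 0.17 for Id4, and leaving out Ing2-/- replicate 3 gave 0.02 for Id4. The cause of these changes was not tested. With 3 and 5 arrays, intervals of the 10 genes span 0.3 to 0.9 log2 units.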
